A study of Mus musculus with 6 samples.

Results

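The 10 genes described here mark hepatic stellate cells, the vitamin A-storing pericytes that lie between the sinusoidal endothelium and the hepatocytes of the liver. They were chosen by symbol (Hand2, Lhx2, Tcf21, Des, Gfap, Cygb, Hgf, Reln, Ecm1 and Ngfr), with 1 entry each among the 24346 gene symbols of the deposited tables. All 10 averaged 1 FPKM or more across the libraries, the filter on low values that left 11614 genes for testing. FPKM scale the fragments of a gene to the length of its transcript and to the size of the library. Levels can thus be set side by side between genes of a library. Between libraries they are relative levels, under a scaling that is not stated. The median log2 ratio of a library's genes to their mean over the libraries was nearly equal in all 6 (0.00387 to 0.00653).

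The study asked how a warm isolation alters the transcriptome of stellate cells. RNA was sequenced from cells of wild type C57BL/6 mice aged 35 weeks, taken from livers of mice on a normal diet, or, in mice on a high fat diet, from tumour tissue or from liver outside the tumour (the non-tumour region). Each of these 3 sources was isolated by perfusion at 37 or at 6 degrees, and cells lacking CD31 and CD45.2 and carrying CD49a were sorted, per the labels' protocols. Each of the 6 combinations had 1 library. Nothing in the labels says how many livers a library held or whether libraries came from separate animals, so each p-value measures a difference only by how far the 6 libraries depart from a model that adds a source and a temperature effect, a spread that may be technical.

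The libraries held an estimated 1.83e+07 to 2.58e+07 fragments, and 11056 to 11673 symbols reached 1 FPKM. Markers of other liver cells moved with both comparisons. The summed level of 12 endothelial markers was, for normal diet, non-tumour and tumour libraries in turn, 1702, 4127 and 2079 FPKM after isolation at 6 degrees and 98.5, 607 and 562 FPKM after isolation at 37 degrees. The summed level of 12 macrophage markers was 493, 566 and 2060 FPKM at 6 degrees and 44.8, 33.4 and 849 FPKM at 37 degrees. Between 6 and 37 degrees 12 of 12 tested endothelial markers and 7 of 11 tested macrophage markers fell. With both high-fat regions as 1 group, 4 of 12 and 2 of 11 rose over normal diet. In the non-tumour region alone 0 of 11 macrophage markers passed. Of all genes tested, 0 passed for temperature without the normal diet pair of libraries and 11 without the non-tumour pair, so temperature counts rest on both pairs. Markers of Schwann cells and glia, which also use Gfap and Ngfr, were at or near 0: the 7 genes summed to between 0.216 and 1.27 FPKM, each was under 1 FPKM in every library, and Sox10 and Foxd3 were listed at 0 in all 6. The 7 cholangiocyte markers summed to 0.371 to 1.96 FPKM and the 11 hepatocyte markers to 27.0 to 280.0 FPKM. In such bulk libraries, fewer cells of a type and less RNA per cell cannot be told apart.

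Stellate cells arise from the mesoderm of the septum transversum, and a small set of transcription factors is known to mark them there and in the adult liver. Quiescent cells hold retinoid droplets, carry intermediate filaments otherwise typical of muscle and glia, and secrete factors that act on hepatocytes. After injury they turn into contractile, matrix-producing myofibroblasts, and several of the genes below are used to follow that change.

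The 10 genes spanned a wide range of expression. Ecm1 ranked between 2 and 3 among all symbols of a library, Hgf between 130 and 330, and the lowest, Hand2 and Gfap, between 2625 and 5027 and between 3284 and 4844. The order Ecm1, Hgf, then Reln and Tcf21, then Cygb, Des, Lhx2 and Ngfr held in all 6 libraries, with Reln above Tcf21 in every library except the tumour library of 37 degrees. Gfap was the lowest in both normal diet libraries and Hand2 in the 4 high-fat libraries. Together the 10 genes held 1.57 to 2.58% of the summed FPKM, of which Ecm1 alone held 1.36 to 2.30%. The highest library exceeded the lowest by a factor of between 1.43 for Des and 2.28 for Hand2. Counting error was small beside this: the lowest values, of Hand2 and Gfap, rested on about 645 and 739 fragments, a counting error of 3.94% and 3.68%.

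**Figure D1:**
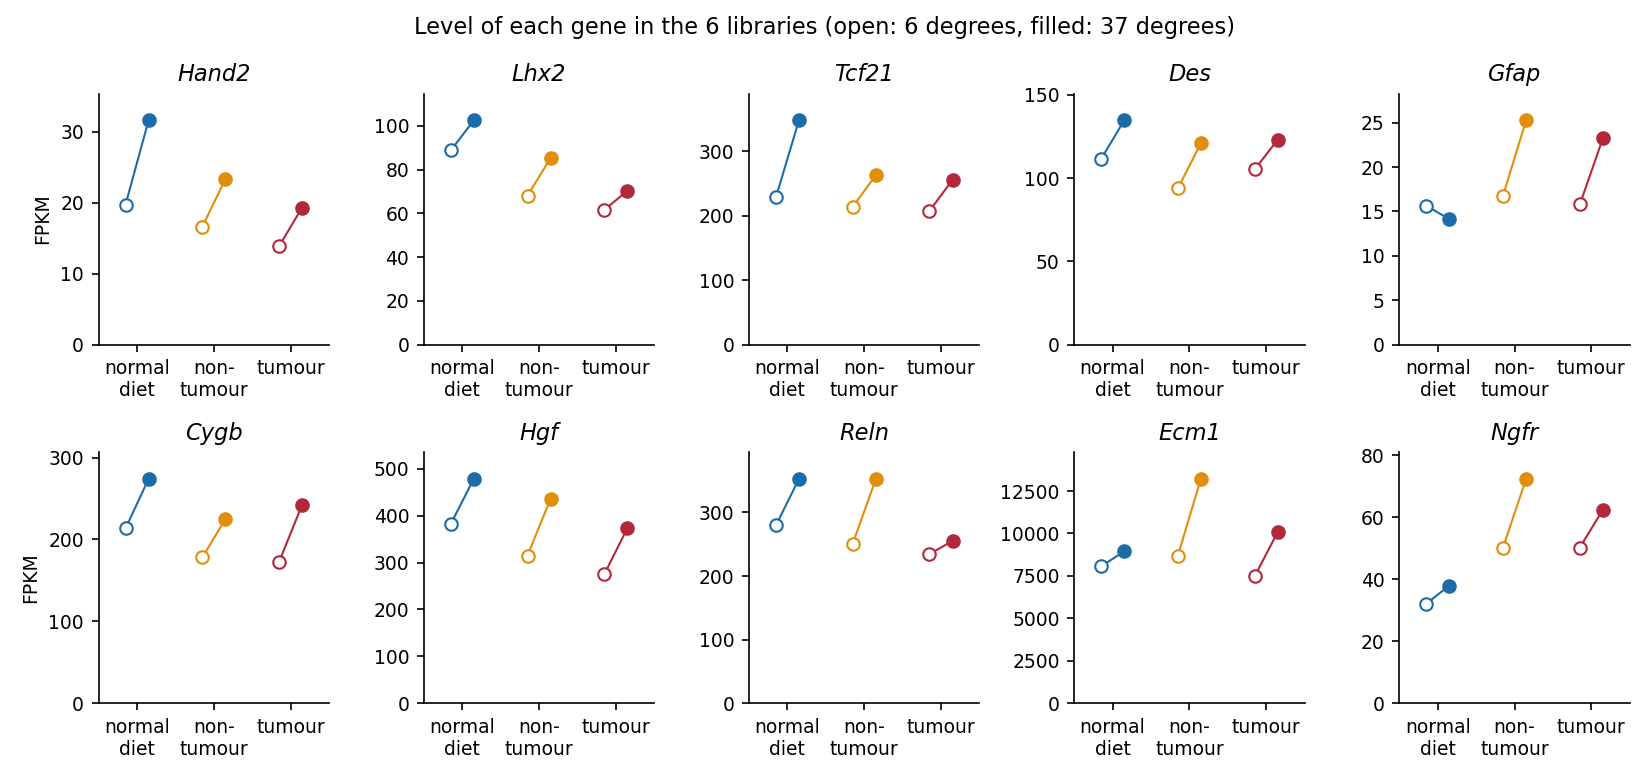
FPKM of the 10 genes on linear axes that start at 0, with 1 point per library: open circles are 6 degrees, filled circles 37 degrees, and a line joins the pair of each liver source. On the deposited FPKM scale the filled circle lies above the open circle in every pair of every gene except the normal diet pair of Gfap. After rescaling to other stellate cell genes the estimates of Lhx2, Des, Gfap and Reln turn below 0. Ngfr and Lhx2 separate normal diet from the high-fat libraries in opposite directions, and their non-tumour and tumour ranges overlap.

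Promoter sequences are shown for 4 members: Hand2 and Hgf, whose levels followed each other most closely over the libraries, and Lhx2 and Ngfr, whose levels did so least. Each is the 250 bases before the transcription start in RefSeq's GRCm38.p6 annotation (9 of the 10 genes were in that table, Cygb was not), written 5′ to 3′ along the gene's strand. Capitals mark CANNTG, the E-box that basic helix-loop-helix proteins such as HAND2 and TCF21 can bind, and TAATTA, a core bound by many homeodomain proteins, the class LHX2 belongs to. Both motifs read the same on either strand.
Hand2, chr8:57320733-57320982, plus strand: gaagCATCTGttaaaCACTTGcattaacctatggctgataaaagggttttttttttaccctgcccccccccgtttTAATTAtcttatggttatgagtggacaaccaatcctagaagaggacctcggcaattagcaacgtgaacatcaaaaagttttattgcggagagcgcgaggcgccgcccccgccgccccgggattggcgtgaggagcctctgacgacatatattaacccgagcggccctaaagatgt
Hgf, chr5:16553245-16553494, plus strand: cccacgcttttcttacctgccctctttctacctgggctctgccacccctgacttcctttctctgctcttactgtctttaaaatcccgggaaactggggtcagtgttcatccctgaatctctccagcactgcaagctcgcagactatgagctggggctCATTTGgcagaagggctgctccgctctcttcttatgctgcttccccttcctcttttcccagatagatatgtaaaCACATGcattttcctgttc
Lhx2, chr2:38339031-38339280, plus strand: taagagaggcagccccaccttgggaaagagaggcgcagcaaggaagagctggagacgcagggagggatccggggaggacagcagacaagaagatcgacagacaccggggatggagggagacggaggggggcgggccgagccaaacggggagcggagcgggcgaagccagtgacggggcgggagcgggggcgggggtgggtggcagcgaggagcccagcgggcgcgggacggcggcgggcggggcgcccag
Ngfr, chr11:95587699-95587948, minus strand: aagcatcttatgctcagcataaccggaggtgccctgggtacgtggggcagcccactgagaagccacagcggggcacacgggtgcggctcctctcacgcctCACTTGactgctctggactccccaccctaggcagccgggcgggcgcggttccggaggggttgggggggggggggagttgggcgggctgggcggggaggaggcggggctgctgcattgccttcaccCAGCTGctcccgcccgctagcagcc
The Hand2 window held 2 E-boxes and 1 TAATTA, those of Hgf and Ngfr 2 E-boxes each, and that of Lhx2 neither motif. Of 32817 promoter windows of the same length, 66.2% held CANNTG and 4.85% held TAATTA, so E-boxes in 3 of these 4 windows are a description and not a site or a cause. Lhx2 and Hgf each have a second start in the table, and no motif was found before either of those. GC content was 72.8% and 70.4% in the Lhx2 and Ngfr windows and 49.2% and 50.8% in those of Hand2 and Hgf. In the windows not shown it was 80% for Reln, 67.2% for Des, 55.6% for Gfap, 54% for Ecm1 and 52.4% for Tcf21. Whether GC content goes with how the levels followed each other was not tested.

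Among the transcription factors, Hand2 on chromosome 8 (57320983 to 57324633, GRCm38, GENCODE vM21 gene model) encodes a helix-loop-helix factor of the cardiac and hepatic mesoderm. Its level in the libraries of 6 degrees was 19.7 FPKM on normal diet, 16.6 FPKM in the non-tumour region and 13.9 FPKM in the tumour region, and in those of 37 degrees it was 31.6, 23.3 and 19.3 FPKM in this order, which is kept below. It was higher at 37 degrees in each pair, by 1.60, 1.40 and 1.39 times, and at each temperature the order was normal diet, non-tumour, tumour. The temperature difference was 0.52 ± 0.09 (log2(FPKM + 1), SE here and below; adjusted p = 0.0443, limma), and Hand2 fell by 0.58 ± 0.11 in the tumour region against normal diet (adjusted p = 0.0402). The non-tumour estimate was -0.33 (adjusted p = 0.168). The temperature call ended when any of the 3 pairs was left out (adjusted p between 0.111 and 0.234), and over all 11 alternatives the adjusted p ran from 0.0363 to 0.451, with an estimate of 0.19 (adjusted p = 0.208) after rescaling to other stellate cell genes; the tumour call ended without the non-tumour pair (0.109), within a range of 0.0345 to 0.398 over 9 alternatives.

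Lhx2 on chromosome 2 (38339281 to 38369733) encodes a LIM-homeodomain factor whose loss in mice is known to set stellate cells into a fibrogenic state. Its level was 88.7 FPKM at 6 and 103 FPKM at 37 degrees on normal diet, 68.1 and 85.3 FPKM in the non-tumour region, and 61.6 and 70.3 FPKM in the tumour region. All 4 high-fat libraries lay below both normal diet libraries, and the non-tumour and tumour ranges overlapped. Lhx2 fell by 0.53 ± 0.08 in the tumour region against normal diet (adjusted p = 0.0293), and its non-tumour estimate of -0.32 did not pass (adjusted p = 0.113). Against both high-fat regions together the fall was 0.42 ± 0.07 (adjusted p = 0.0328). The tumour call ended without the non-tumour pair (adjusted p = 0.0740). With 1 high-fat pair left out, the joint comparison is that of the remaining region alone. Without the non-tumour pair it is thus this same fit, and without the tumour pair it did not pass either (0.142). Over their alternatives the adjusted p of the tumour and joint calls ran from 0.0240 to 0.199 and from 0.0223 to 0.196. The temperature difference of 0.24 ± 0.07 did not pass (adjusted p = 0.155).

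Tcf21 on chromosome 10 (22817281 to 22820174, minus strand), a helix-loop-helix factor of visceral mesenchyme, stood at 229, 214 and 208 FPKM at 6 degrees and 348, 263 and 256 FPKM at 37 degrees. The 3 libraries of 6 degrees lay within a narrow range, and the normal diet library of 37 degrees stood above all others. Its ratio between temperatures was 1.52 on normal diet and 1.23 in both other sources. Neither the temperature difference (0.40 ± 0.09, adjusted p = 0.0923) nor the differences of the tumour (-0.29, adjusted p = 0.187) and non-tumour (-0.25, adjusted p = 0.287) regions from normal diet passed.

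Of 16 tested other transcription factors of liver mesenchyme, 1 rose at 37 degrees, Tbx20 (a T-box factor), by 0.55 ± 0.09 (adjusted p = 0.0474), and none fell. Its FPKM were 17.7, 12.8 and 13.7 at 6 degrees and 24.4, 18.5 and 23.2 at 37 degrees. In the high-fat regions 3 of the 16 rose, Ets2 (0.98 ± 0.10, adjusted p = 0.0107), Pparg, the adipogenic nuclear receptor kept by quiescent stellate cells (1.84 ± 0.28, adjusted p = 0.0234), and Prrx1, a homeobox factor of limb and craniofacial mesenchyme that was named after its values were seen (1.18 ± 0.18, adjusted p = 0.0257). Wt1, a factor of mesothelium and stellate precursors, fell by 1.75 ± 0.16 (adjusted p = 0.00957). Pparg was low, at 0.715 and 0.0972 FPKM on normal diet and between 0.849 and 9.12 FPKM in the high-fat libraries, with the lower value of each source at 37 degrees. The summed endothelial and macrophage markers were also lower at 37 degrees in each source. The part of such cells in the rise of Pparg was not tested. Of the 14 dimerization partners and LIM cofactors through which such factors act, none passed in either comparison (3 and 4 had an unadjusted p under 0.05 for temperature and diet); the most abundant, Id3, an inhibitor of helix-loop-helix dimers, stood between 1606 and 3565 FPKM.

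The intermediate filament genes were Des and Gfap. Des on chromosome 1 (75360329 to 75368579) encodes desmin, the muscle filament protein that is the classical rodent stellate cell marker. Its level was 111, 93.8 and 105 FPKM at 6 degrees and 135, 121 and 123 FPKM at 37 degrees. It varied least of the 10 genes, and was higher at 37 degrees in all 3 pairs, as were 23.4% of all genes tested. The temperature difference was 0.29 ± 0.07 (adjusted p = 0.105), and the tumour and non-tumour estimates were -0.11 (adjusted p = 0.483) and -0.20 (adjusted p = 0.262). Smooth muscle cells also use desmin. The summed level of 7 smooth muscle markers was 466 and 616 FPKM on normal diet and 1366 and 1354 FPKM in the tumour region. Most of the tumour sums came from Acta2 (337 and 266 FPKM) and Tagln (803 and 857 FPKM), which are also in the myofibroblast list. Des was not higher in the tumour region than on normal diet at either temperature. The part of either cell type in its level was not tested.

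Gfap on chromosome 11 (102887336 to 102900912, minus strand) encodes the glial filament protein found in quiescent stellate cells. Its 3 libraries of 6 degrees stood at 15.6, 16.8 and 15.8 FPKM, and those of 37 degrees at 14.1 FPKM on normal diet, 25.3 FPKM in the non-tumour region and 23.2 FPKM in the tumour region. It was the only member lower at 37 degrees in any pair: the ratio was 0.903 on normal diet against 1.503 and 1.47 in the high-fat regions. The model gave it the widest error of the 10, with a temperature difference of 0.32 ± 0.16 (adjusted p = 0.356) and a difference of 0.40 ± 0.17 between both high-fat regions and normal diet (adjusted p = 0.231). All 4 high-fat libraries lay above both normal diet libraries. In the tumour and non-tumour region the ratio was 1.01 and 1.07 at 6 degrees and 1.64 and 1.79 at 37 degrees. The tumour gap at 6 degrees, a ratio of 1.009, was smaller than the counting error of 3.68% at the lowest value of Gfap.

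None of the 6 tested other intermediate filament genes passed for temperature (2 had an unadjusted p under 0.05). Vim (vimentin, the general mesenchymal filament) stood at 393, 347 and 471 FPKM at 6 degrees and 451, 443 and 727 FPKM at 37 degrees (0.39 ± 0.10, adjusted p = 0.126), and Cryab, a small heat shock protein that chaperones desmin, between 185 and 239 FPKM. In the high-fat regions 1 of the 6 rose, Synm (synemin, a filament protein that assembles with desmin and vimentin), by 0.91 ± 0.14 (adjusted p = 0.0235), from 1.36 and 2.005 FPKM to between 3.27 and 5.47 FPKM.

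Cygb on chromosome 11 (116645595 to 116654313, minus strand) encodes cytoglobin, a globin that in liver is largely restricted to stellate cells. Its level was 213, 178 and 173 FPKM at 6 degrees and 274, 225 and 242 FPKM at 37 degrees. Each pair was higher at 37 degrees, by 1.28, 1.26 and 1.40 times, and each normal diet library was above the high-fat libraries of its own temperature. The temperature difference was 0.39 ± 0.07 (adjusted p = 0.0514), and the tumour and non-tumour estimates were -0.24 (adjusted p = 0.164) and -0.27 (adjusted p = 0.156). Of 4 tested genes of other globins and of cytoglobin reduction, Hba-a1, the haemoglobin alpha chain of red cells, fell by 1.58 ± 0.26 at 37 degrees (adjusted p = 0.0444). Its level went from 1.34, 3.89 and 5.003 FPKM to a value listed at 0 in the normal diet and non-tumour libraries and 1.57 FPKM in the tumour library. How reads were divided between Hba-a1 and its near-identical copy is not given in the sources used here. Cyb5a and Cyb5r3, which encode cytochrome b5 and its reductase, are known to keep cytoglobin reduced. They stood between 214 and 358 FPKM and between 140 and 195 FPKM. Both were lower at 37 degrees in each pair, where Cygb was higher, with estimates of -0.48 ± 0.10 (adjusted p = 0.0713) and -0.34 ± 0.07 (adjusted p = 0.0791) that did not pass. All 4 tested genes of this list had negative estimates and an unadjusted p under 0.05 for temperature, and none passed between diets (2 had an unadjusted p under 0.05).

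Of the secreted proteins, Hgf on chromosome 5 (16553495 to 16620152) encodes hepatocyte growth factor, the mitogen that stellate cells supply to hepatocytes. Its level was 382, 315 and 275 FPKM at 6 degrees and 479, 436 and 373 FPKM at 37 degrees. It was higher at 37 degrees by 1.25, 1.38 and 1.36 times. At each temperature the order was normal diet, non-tumour, tumour, as for Hand2, Lhx2, Tcf21 and Reln. For Reln the non-tumour and normal diet libraries of 37 degrees were nearly equal (a ratio of 0.998). How many of all genes had this order was not counted. Hgf rose at 37 degrees by 0.41 ± 0.07 (adjusted p = 0.0464). Its tumour estimate of -0.42 ± 0.08 missed the threshold (adjusted p = 0.0512), as did that of the non-tumour region (-0.21, adjusted p = 0.254). Under quantile normalization the tumour estimate was -0.68 and passed (adjusted p = 0.0206, within 0.0206 to 0.443 over 9 alternatives). The temperature call ended when any of the 3 pairs was left out (adjusted p between 0.112 and 0.243) and ran from 0.0381 to 0.533 over the 11 alternatives; after rescaling to other stellate cell genes the estimate was 0.06.

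The receptor of HGF, Met, was under 1 FPKM in every library, as were the activating proteases Hgfac and St14, their inhibitor Spint1, and the related ligand and receptor Mst1 and Mst1r. Of the 4 other genes of HGF activation that could be tested, Plat, the tissue plasminogen activator that can process pro-HGF, rose at 37 degrees by 0.64 ± 0.10 (adjusted p = 0.0364). Its level was 30.6, 51.3 and 76.4 FPKM after the cold isolation and 56.9, 72.8 and 113 FPKM after the warm isolation. In the high-fat regions Plat (0.84 ± 0.10, adjusted p = 0.0167) and Spint2, an inhibitor of HGF-activating proteases (1.20 ± 0.12, adjusted p = 0.0107), rose. Spint2 went from 29.3 and 19.5 FPKM on normal diet to between 46.8 and 71.4 FPKM.

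Reln on chromosome 5 (21884454 to 22344702, minus strand) encodes reelin, a large extracellular protein of migrating neurons that in liver marks stellate cells. Its level was 280, 251 and 235 FPKM at 6 degrees and 353, 352 and 255 FPKM at 37 degrees. The normal diet and non-tumour libraries of 37 degrees were alike, and the tumour pair changed least, by a ratio of 1.09 against 1.26 and 1.40. The temperature difference was 0.31 ± 0.09 (adjusted p = 0.155), and the tumour and non-tumour estimates were -0.36 (adjusted p = 0.131) and -0.08 (adjusted p = 0.757). Both reelin receptors, Vldlr and Lrp8, and the adaptor Dab1 were under 1 FPKM in every library. Of the 6 tested genes of the relay and of reelin cleavage, 1 fell at 37 degrees, the kinase Fyn, by 1.95 ± 0.16 (adjusted p = 0.0139): 28.0, 51.6 and 35.4 FPKM at 6 degrees against 5.34, 10.97 and 11.8 FPKM at 37 degrees. Fyn is also used by endothelial cells and macrophages, whose summed markers moved the same way; their part in its fall was not tested. None of the 6 passed in the high-fat regions (3 had an unadjusted p under 0.05).

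Ecm1 on chromosome 3 (95734147 to 95739569, minus strand) encodes extracellular matrix protein 1, known in liver as a restraint on the activation of latent TGF-β. It was the most abundant member, at 8059, 8695 and 7479 FPKM at 6 degrees and 8943, 13214 and 10079 FPKM at 37 degrees. The ratio between temperatures was 1.11 on normal diet and 1.52 and 1.35 in the non-tumour and tumour regions, and the difference of 0.39 ± 0.12 did not pass (adjusted p = 0.168). The tumour estimate was 0.03 (adjusted p = 0.919) and the non-tumour estimate 0.34 (adjusted p = 0.288). None of 9 tested matrix and TGF-β partners of ECM1 passed for temperature (5 had an unadjusted p under 0.05). In the high-fat regions 2 of the 9 rose, Fn1 (fibronectin, 1.82 ± 0.14, adjusted p = 0.00709) and Thbs1 (thrombospondin, an activator of latent TGF-β, 2.25 ± 0.31, adjusted p = 0.0193), and 2 fell: Mmp2, a gelatinase, by 1.44 ± 0.09 (adjusted p = 0.00668), and Ltbp1, a latent TGF-β binding protein named after its values were seen, by 0.51 ± 0.10 (adjusted p = 0.0438). Fn1 stood at 61.2 and 78.8 FPKM on normal diet and between 221 and 273 FPKM in the high-fat libraries, and Mmp2 at 99.6 and 114 FPKM against 32.3 to 46.9 FPKM.

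Ngfr on chromosome 11 (95568818 to 95587735, minus strand) encodes p75, the neurotrophin receptor of neural cells that stellate cells share. It stood at 32.1 FPKM at 6 and 37.9 FPKM at 37 degrees on normal diet, 50.2 and 72.3 FPKM in the non-tumour region, and 50.2 and 62.4 FPKM in the tumour region. All 4 high-fat libraries lay above both normal diet libraries, and the 2 high-fat libraries of 6 degrees were nearly equal. Ngfr rose by 0.77 ± 0.10 in the non-tumour region (adjusted p = 0.0255) and by 0.67 ± 0.10 in the tumour region (adjusted p = 0.0280) against normal diet; both estimates use the same normal diet libraries. The non-tumour call stayed without the tumour pair (adjusted p = 0.0402) and ranged from 0.0191 to 0.220 over 9 alternatives. The tumour call ended without the non-tumour pair (adjusted p = 0.0606), within a range of 0.0221 to 0.230. The temperature difference of 0.35 ± 0.09 did not pass (adjusted p = 0.108).

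Ntrk2 and Ntrk3, receptors that can pair with p75, its partner Rtn4r and the ligand Ntf5 were each under 1 FPKM in every library. None of the 8 tested genes of this group passed for temperature (3 had an unadjusted p under 0.05). Arhgdia, a GDP dissociation inhibitor that binds p75, stood between 206 and 229 FPKM. In the high-fat regions 2 of the 8 rose: Lingo1, a co-receptor of p75, by 0.89 ± 0.12 (adjusted p = 0.0200), from 1.69 and 2.26 FPKM to between 3.79 and 5.52 FPKM, and the ligand Ntf3 by 0.68 ± 0.11 (adjusted p = 0.0297), from 28.1 and 41.0 FPKM to between 42.7 and 75.6 FPKM.

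Among these related genes, the temperature calls of Plat and Tbx20 ended when any of the 3 pairs was left out (adjusted p from 0.0956 to 0.148 for Plat and from 0.119 to 0.243 for Tbx20) and when the libraries were rescaled to 22 other stellate cell genes (adjusted p = 0.119 and 0.148). The call of Hba-a1 also ended without any 1 pair (0.0862 to 0.114), and that of Fyn without the normal diet pair (0.0633) or the non-tumour pair (0.0827); neither ended on rescaling. In the high-fat regions the calls of Prrx1 (0.0523), Ntf3 (0.0711), Lingo1 (0.132), Synm (0.151) and Ltbp1 (0.0961) ended without the non-tumour pair. Those of Prrx1 (0.0759), Pparg (0.117), Plat (0.104), Thbs1 (0.0668) and Ltbp1 (0.152) ended without the tumour pair, and that of Ntf3 on rescaling (0.0633). Ets2, Wt1, Spint2, Fn1 and Mmp2 passed under each of these alternatives. With a high-fat pair left out, the high-fat comparison is that of the remaining region alone.

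Over temperature, 9 of the 10 genes were higher at 37 than at 6 degrees in all 3 pairs, all but Gfap. Of all 11614 genes tested, 23.4% were. By the test 2 of 10 rose, Hand2 and Hgf, and none fell, where 500 of all genes (4.31%) passed, 40 higher and 460 lower. The median of the 10 differences was 0.37 against 0.01 for all genes. Another 22 genes of stellate cells, among them Lrat, the enzyme that esterifies retinol for storage (335 to 538 FPKM), had a median of 0.36, with 19 of 22 higher in all 3 pairs and 1, Lrat, passing (0.50 ± 0.07, adjusted p = 0.0285; 0.0764 to 0.167 with a pair left out). When the libraries were rescaled so that these 22 genes kept a common level, the median of the 10 became 0.03, none passed and none had an unadjusted p under 0.05, the median of all genes shifted to -0.30, and the estimates of Lhx2 (-0.11), Des (-0.06), Gfap (-0.02) and Reln (-0.04) changed sign. FPKM are relative levels, and their sum over all genes was not constant, at 4.927e+05 to 6.334e+05 between libraries. The summed endothelial and macrophage markers given above fell as these genes were higher. The part of such cells in the higher levels was not tested.

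**Figure D2:**
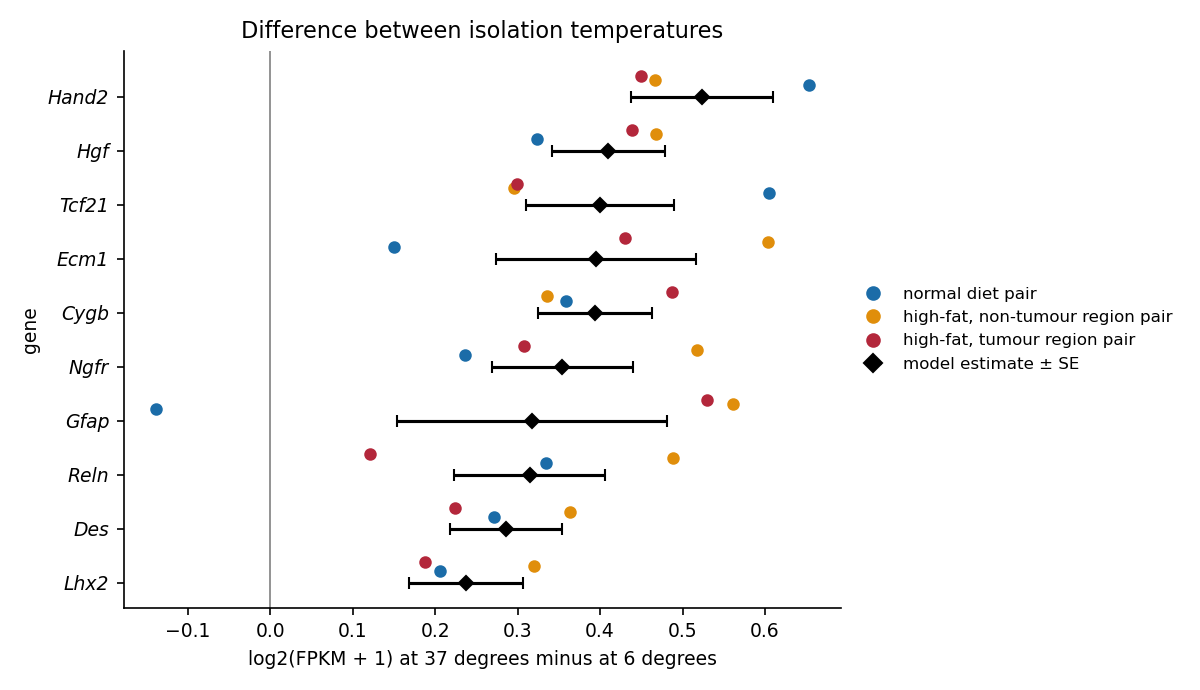
Difference in log2(FPKM + 1) between 37 and 6 degrees for each gene, ordered by the model estimate: circles are the pairs of normal diet (blue), non-tumour (orange) and tumour (red) libraries, and diamonds with bars are the estimate and its SE. The estimates run from 0.24 for Lhx2 to 0.52 for Hand2, the normal diet circle of Gfap alone lies below 0, and after rescaling to 22 other stellate cell genes those of Lhx2, Des, Gfap and Reln turn below 0.

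Over liver source, the 10 genes did not move together. Hand2, Lhx2, Tcf21, Des, Cygb, Hgf and Reln, 7 of the 10, were lower than normal diet in both high-fat regions at both temperatures, as were 19.9% of all genes and 5 of the 22 other stellate cell genes. For Reln this rests at 37 degrees in the non-tumour region on a ratio of 0.998, a gap smaller than its counting error of 0.431%. Gfap and Ngfr were above both normal diet libraries in all 4 high-fat libraries, as were 15.4% of all genes and 8 of the 22. In the tumour region at 6 degrees the gap of Gfap, a ratio of 1.009, was smaller than the counting error of 3.68% at its lowest value. Lhx2 alone was below both in all 4, as were 14.5% of all genes and 3 of the 22. By the test 3 of 10 changed in the tumour region against normal diet, where 8.02% of all genes passed: Ngfr rose, and Lhx2 and Hand2 fell. In the non-tumour region Ngfr alone passed, where 4.81% of all genes did. Both contrasts share the normal diet libraries. Under the alternative fits no member's estimate against normal diet changed sign; within 6 degrees alone, with no test, that of Ecm1 in the tumour region was -0.11 (0.03 over both temperatures).

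**Figure D3:**
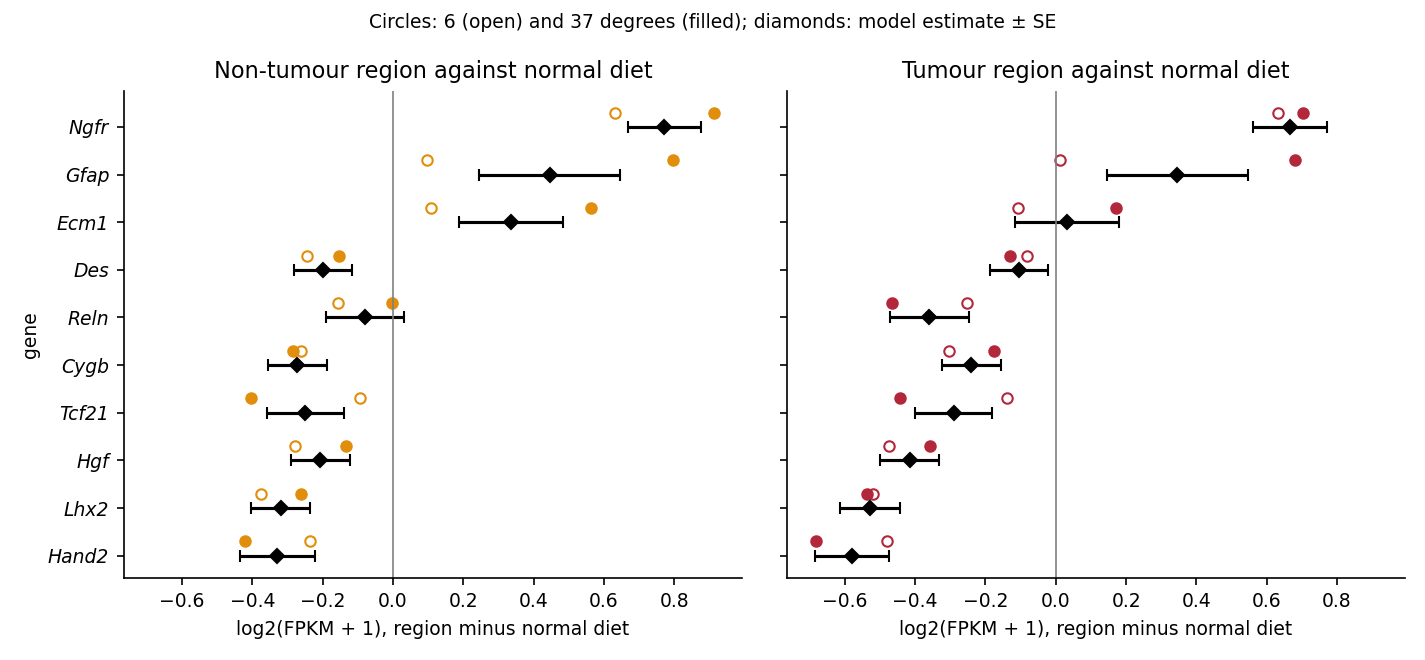
Difference in log2(FPKM + 1) from normal diet for each gene in the non-tumour region (left) and the tumour region (right): open circles are 6 degrees, filled circles 37 degrees, and diamonds with bars the model estimate and its SE. Ngfr lies farthest to the right in both panels (0.77 and 0.67) and Hand2 farthest to the left (-0.33 and -0.58).

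For the 2 high-fat regions as 1 group against normal diet, 3 of 10 passed, where 9.61% of all genes did. Ngfr rose by 0.72 ± 0.09 (adjusted p = 0.0168), Lhx2 fell as given above, and Hand2 fell by 0.45 ± 0.09 (adjusted p = 0.0468). Hgf was lower in both regions at both temperatures, with an estimate of -0.31 ± 0.07 (adjusted p = 0.0668) that passed as -0.52 under quantile normalization (0.0231) and as -0.42 after rescaling (0.0384), within 0.0231 to 0.517 over 10 alternatives. The median of the 10 was -0.24 against 0.02 for all genes, while the 22 other stellate cell genes had a median of 0.13, with 6 that rose, 3 that fell and 13 that did not pass. Among these Sod3, an extracellular superoxide dismutase (1.67 ± 0.09, adjusted p = 0.00668), and Rgs5, a pericyte regulator of G protein signalling (1.07 ± 0.09, adjusted p = 0.00870), rose, and Itga8, an integrin chain, fell by 0.98 ± 0.08 (adjusted p = 0.00822). The calls of Ngfr and Hand2 ended without the non-tumour pair (adjusted p = 0.0606 and 0.109), and that of Hand2 also without the tumour pair (0.191). These are the fits of the remaining region alone against normal diet. The ranges over 10 alternatives were 0.0123 to 0.161 for Ngfr and 0.0378 to 0.441 for Hand2. In the same comparison 4 of 12 tested endothelial markers (median 1.56), 2 of 11 macrophage markers (median 1.32) and 2 of 7 smooth muscle markers (median 0.72) rose, and of 13 myofibroblast markers 5 rose and 1 fell (median 0.51). In the tumour region alone 6 of 11 macrophage (median 2.57), 6 of 13 myofibroblast (median 0.68) and 5 of 7 smooth muscle markers (median 1.44) rose and 0 of 12 endothelial markers passed (median 1.24, 9 with an unadjusted p under 0.05). In the non-tumour region 4 of 13 myofibroblast markers rose and 1 fell (median 0.09), and 1 of 12 endothelial markers rose (median 1.94). There 0 of 11 macrophage markers passed (median -0.11), and 4 of the 11 had positive estimates. The summed myofibroblast markers ran from 2641 to 3345 FPKM outside the tumour region and stood at 4372 and 3979 FPKM in it. The part of these cells in the differences was not tested. Acta2 and Tagln are counted in both the myofibroblast and the smooth muscle list.

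Between the tumour and the non-tumour region none of the 10 genes passed, and none had an unadjusted p under 0.05; adjusted p ran from 0.518 to 0.913, and 0.00861% of all genes (1 gene) passed. The median of the 10 was -0.16 against -0.02 for all genes. Hand2 was lower in the tumour region by a ratio of 0.835 at 6 and 0.828 at 37 degrees and Lhx2 by 0.904 and 0.825. The estimates of Tcf21, Gfap and Ngfr turned positive on the scale of the 22 other stellate cell genes, and that of Cygb turned negative under quantile normalization.

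**Figure D4:**
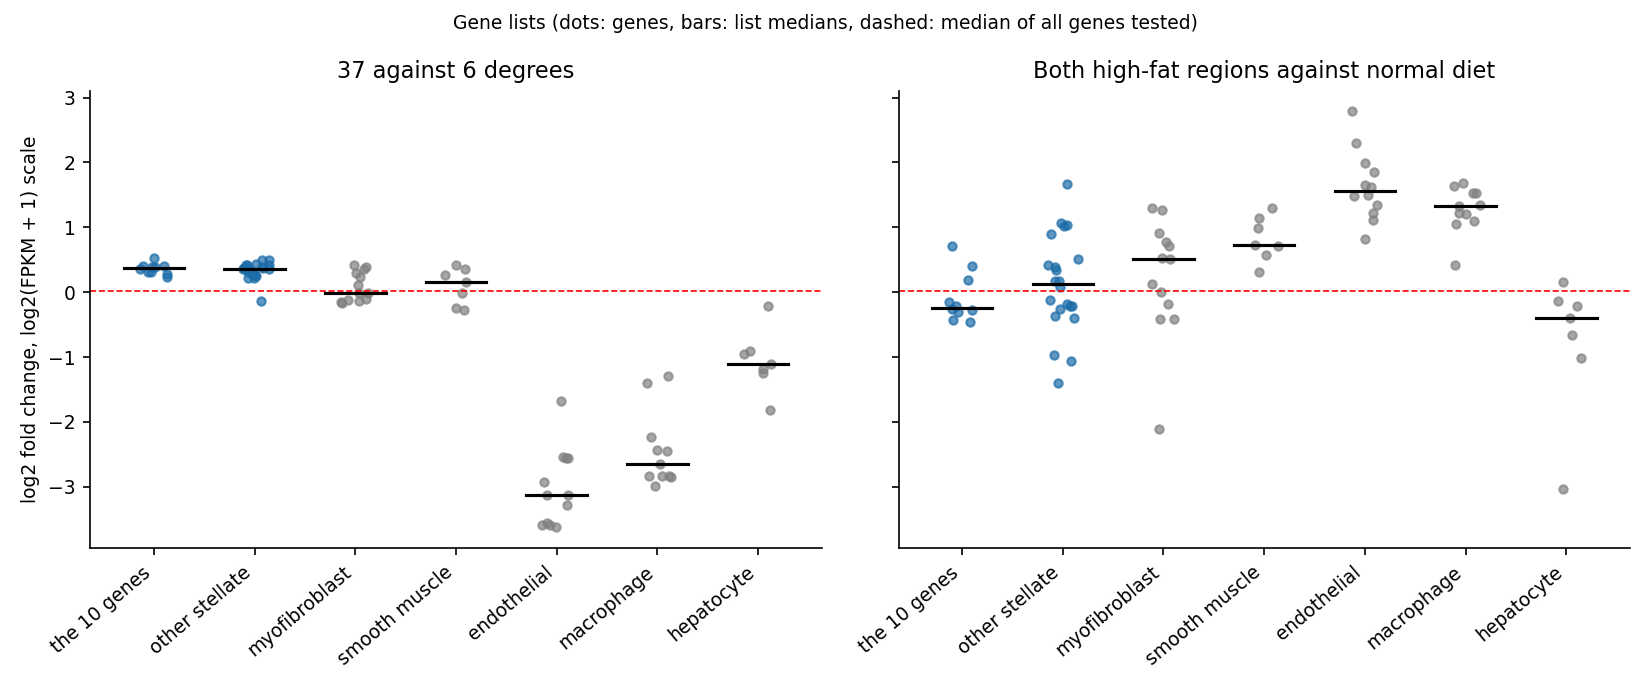
Log2 fold changes of single genes (dots) and list medians (bars) for temperature (left) and for both high-fat regions against normal diet (right), with the median of all genes tested as a dashed line. At 37 degrees the 10 genes and the 22 other stellate cell genes lie at medians of 0.37 and 0.36 (0.03 for the 10 after rescaling to those 22), and the endothelial and macrophage markers at -3.12 and -2.64.

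How the 10 genes varied with each other was described over the 6 libraries, which share the 2 temperatures and 3 sources. Pearson's r of log2(FPKM + 1) exceeded 0.8 in 19 of the 45 pairs and was below 0 in 8. The closest pairs were Hgf with Hand2 (0.968), Tcf21 with Hand2 (0.956) and Cygb with Des (0.936), and the least alike was Ngfr with Lhx2 (-0.427). All 8 negative pairs held Ngfr or Gfap. The ratio of Ngfr to Lhx2 was 0.361 and 0.370 in the normal diet libraries of 6 and 37 degrees and between 0.737 and 0.887 in the 4 high-fat libraries, with no overlap. The ratio of Ngfr to Hand2 was 1.63 and 1.20 against 3.02 to 3.62.

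Hand2 and Ngfr were the members that spanned at least 1 on the log2 scale. Among 2254 genes with such a span, those most like Hand2 were Bmp10, a ligand of the BMP family (r = 0.955), the Notch target Hes1 (0.941) and Gdf10, another TGF-β family ligand (0.940). Bmp10 stood at 18.9, 15.3 and 10.6 FPKM at 6 degrees and 26.8, 23.8 and 16.1 FPKM at 37 degrees, with the same order of sources as Hand2. Those most like Ngfr were Cdh2, N-cadherin (0.999), Colec10, a collectin (0.997), and the complement protease gene C1ra (0.996). They are the top of many: 154 of these genes had an r over 0.9 with Ngfr, and 10 with Hand2. Cdh2 stood at 92.0 and 108.5 FPKM on normal diet and between 136 and 199 FPKM in the high-fat libraries.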

How the data were processed

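The deposited values are FPKM listed by the authors for each library, with 1 file per sample. The submitters' processing notes name the build mm10 and the tools TopHat2 2.1.1, Bowtie2 and Cuffdiff 2.2.1. Which annotation, strand setting and library scaling Cuffdiff was given is not stated there. With the strand setting unknown, reads from overlapping genes cannot be told apart.

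Here the 11614 of 24346 genes that averaged 1 FPKM or more were tested on log2(FPKM + 1), a scale that understates changes of low genes, with limma 3.58.1 in R 4.3.3. The linear model added a term for source and a term for temperature (2 residual degrees of freedom, 5.02 with the prior, fitted with an intensity trend). It was also run on simulated data that assumed additive effects and independent normal noise of the fitted spread. Such a run cannot check these assumptions or the spread between animals. Benjamini-Hochberg adjustment ran over all genes tested, with a threshold of 0.05. Fragments were estimated from the FPKM of low single-transcript genes, as the files hold no counts. Promoters came from RefSeq (GRCm38.p6), gene models from GENCODE vM21.

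All 10 genes were reported. From each related list up to 3 genes that passed (smallest adjusted p first) were named, or, where none passed, the 2 with the highest mean; some list genes are not reported here. The members and lists were chosen with earlier results of these data known. Alternatives changed the pseudocount, the filter, the scaling, the terms and the pairs included.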

Additional observations from a re-analysis of the deposited data

Results flagged for a closer look

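With 1 library per group, the differences below between the effects of 2 groups could not be tested. They are given because the effects had opposite signs.

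Gfap was higher at 37 than at 6 degrees in the non-tumour pair (0.56 on the log2(FPKM + 1) scale) and in the tumour pair (0.53), and lower in the normal diet pair (-0.14). The temperature effect thus differed from that of normal diet by 0.70 in the non-tumour region and by 0.67 in the tumour region. The normal diet values were 15.6 FPKM at 6 and 14.1 FPKM at 37 degrees, a ratio of 0.903, with a counting error of 3.68% at the lower of them. The difference between effects was not tested.

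Ecm1 was lower in the tumour region than on normal diet at 6 degrees (-0.11) and higher at 37 degrees (0.17), a difference of 0.28 that was not tested. Cygb was lower in the tumour than in the non-tumour region at 6 degrees (-0.04) and higher at 37 degrees (0.11), a difference of 0.15 that was not tested.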

How the results depend on the processing

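Calls depended on the settings more than directions did. Under no filter on low values none of the 10 genes passed in any contrast, with 24346 genes tested and no gene of any kind passing (3 to 7 members had an unadjusted p under 0.05). For temperature the number of members that rose, 2 in the report, became 0 with a pseudocount of 0.1, 0 without the liver source term, 0 after rescaling to the 22 other stellate cell genes, 0 without the normal diet, the non-tumour or the tumour pair, 1 with a mean of at least 5 FPKM and 1 with quantile normalization; between 0 and 9 members had an unadjusted p under 0.05. For the tumour region against normal diet, 3 became 0 both without the non-tumour libraries and when the temperature term was dropped (0; 5 and 2 members unadjusted). It became 4, all lower, with quantile normalization, where Hgf and Cygb passed and Ngfr did not (adjusted p = 0.0516), and 2 after rescaling, where Hand2 did not pass (0.0617). For the non-tumour region, 1 became 2 after rescaling to stellate cell genes and 0 without the temperature term (1 unadjusted). For both regions together, 3 became 5 with quantile normalization (Hgf and Cygb added), 4 after rescaling (Hgf added), 0 without the non-tumour pair, 1 without the tumour pair and 0 without the temperature term (5, 4 and 2 unadjusted). It became 2 with a pseudocount of 0.1, where Hand2 did not pass (adjusted p = 0.0503, limma). Leaving out a pair leaves 1 residual degree of freedom. With a high-fat pair left out, the comparison of both regions is that of the remaining region alone. The cause of the other changes was not tested. Among the alternative fits 8 of the members' estimates changed sign: for temperature after rescaling Lhx2 (-0.109), Des (-0.0621), Gfap (-0.0160) and Reln (-0.0356), and for tumour against non-tumour region Cygb under quantile normalization (-0.0450) and Tcf21 (0.144), Gfap (0.0777) and Ngfr (0.0781) after rescaling. Within 6 degrees, with no test, Ecm1 in the tumour region against normal diet (-0.108) and Cygb between the regions (-0.0432) also had the other sign. That rescaling moved the median of all genes to -0.30 for temperature, -0.14 for the non-tumour region and 0.14 for tumour against non-tumour region. Median-ratio rescaling changed no member's call, but its offsets were only 0.00387 to 0.00653 on the log2 scale. It left the values nearly as deposited, so it could not show whether calls depend on scaling. Leaving out small RNA symbols, an alternative chosen after seeing the data, let Cygb pass for temperature (3 members, 593 genes) and Hgf for the tumour region (4 members), and let 52 genes in place of 1 pass between the regions.

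Over all genes, rescaling to stellate cell genes called 19 higher and 3319 lower for temperature in place of 40 and 460, 184 and 432 for the non-tumour region in place of 296 and 263, 435 and 527 for both regions in place of 678 and 438, and 66 and 1 between the regions. Quantile normalization called 459 and 398 for the tumour region in place of 607 and 324 and 463 and 485 for both regions. For temperature 283 genes passed with the filter at 5 FPKM, 11 when the non-tumour libraries were left out, and 0 without the normal diet pair or the source term, where the smallest adjusted p were 0.0625 and 0.105. For the tumour region 571 passed with the filter at 5 FPKM, 370 when the non-tumour libraries were left out and 7 without the temperature term; for the non-tumour region 5 passed without that term, and for both regions 134.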
